A study of Mus musculus with 48 samples.

Results

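H3K27me3 in adult mouse hepatocytes was compared with H3K27me3 in definitive endoderm, the embryonic layer from which liver and pancreas form. The comparison covered 23177 of the 24466 genes in the deposited table; the other 1289 are genes for microRNAs, snoRNAs and scaRNAs and were left out. Chromatin immunoprecipitation sequencing (ChIP-seq) of the mark gave each gene 1 value per cell type, a ratio of ChIP to input. Definitive endoderm was sorted from embryos at e8.25 (days of embryonic development) as cells carrying the surface antigen ENDM1. The embryos came from superovulated B6C3F1 females mated with C3H, Pdx1-eGFP or Ins-RFP males, and the sources used here do not say which of these males sired the endoderm embryos. Hepatocytes came from animals aged 8 weeks, with no strain, sex or isolation method stated in the labels. For each cell type the labels list 2 ChIP libraries, made with a Millipore antibody, and 2 input libraries, and the table holds 1 pooled column for them. Mature beta cells sorted at 8 weeks by an insulin reporter, the only other cell type of the table, are given beside the hepatocyte values for orientation. The series design treats the endoderm cells as the baseline of its analyses.

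H3K27me3 is placed by Polycomb repressive complex 2 (PRC2) and marks genes that are held silent. In early embryonic cells it typically covers CpG-rich promoters of developmental regulators that belong to other lineages. Hepatocytes are the main parenchymal cells of liver: they secrete plasma proteins, make bile acids, detoxify drugs and dispose of nitrogen as urea.

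Because the columns had been quantile-normalized, they share 1 distribution: a ratio of 0.178 at the 5th percentile, 0.459 at the 25th, 0.711 at the 50th, 1.27 at the 75th and 3.18 at the 95th. A ratio therefore places a gene within its own cell type, and the total amount of the mark cannot be compared between them. A gene was said to have moved only if its log2(ratio + 0.0711) differed by at least 1 and its rank percentile within the column differed by at least 25 points. The added constant, a median ratio divided by 10, dampens log2 differences where ratios are low. A gene could be called higher only if it lay at or under the 75th percentile in endoderm, so genes at the top of the endoderm column could move only downward. Likewise, a gene below the 25th percentile in endoderm could not be called lower. No replicate values were at hand, so no difference has an error, a test or a p-value. Fewer marked cells and less of the mark per cell cannot be told apart in such bulk values.

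Under this rule, 2485 genes were lower in hepatocytes, 10.7% of the genes compared, and 2334 were higher, 10.1%. The remaining 18358 genes, 79.2%, did not move. Genes that moved lower had a median ratio of 1.33 in endoderm and 0.397 in hepatocytes, with 0.589 in beta cells. Genes that moved higher had medians of 0.381 and 1.3, with 1.06 in beta cells. The log2 limit alone would have called 2980 genes lower and 2629 higher, and the rank limit alone 3757 and 3399. Just inside the rule lay Idh1 (0.529 in endoderm and 0.229 in hepatocytes), Il1rap (0.895 and 0.412) and Syce3 (1.32 and 0.626), and just outside it Hoga1 (0.735 and 0.332), Pon2 (0.958 and 0.444) and Olfr1507 (1.59 and 0.760). On the higher side, Igdcc3 (1.04 and 2.37), Cyp4f37 (0.414 and 0.900) and Slfn2 (1.07 and 2.61) lay just inside, and Xylt1 (0.767 and 1.61), B4galt6 (0.497 and 1.06) and Epb41l3 (0.543 and 1.15) just outside. When each column was instead divided by its most frequent ratio (1.27 in endoderm and 0.918 in hepatocytes), the median log2 difference of all genes moved from -0.03 to 0.39. Of the moved genes, 69.9% were then higher, against 48.4% before, with 1419 lower and 3297 higher.

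The upper tail of the columns needs care. The shared distribution holds no ratio between 15.4 and 31.4, and 108 genes of each column lie above this gap. In endoderm 63 of these were among the genes compared, 41 of them in the lists of developmental regulators. In hepatocytes 107 of the 108 were small RNA genes, and 1 was a gene compared, the unnamed model Gm22650. A gene in this tail in endoderm thus had a large log2 difference almost wherever it stood in hepatocytes, and the rank limit left 4 of the 63 as lower: Natd1, Suv39h2, Olig1 and Cebpb. These were also the genes with the largest log2 differences on the lower side. Their endoderm ratios of 232, 210, 181 and 140 should be read as ranks, and their hepatocyte ratios were 0.530, 0.627, 0.855 and 0.349. Recurring ratios mattered less, since 46 compared genes stood at the most frequent value of either column, 3 of them called lower and 11 higher.

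**Figure D1:**
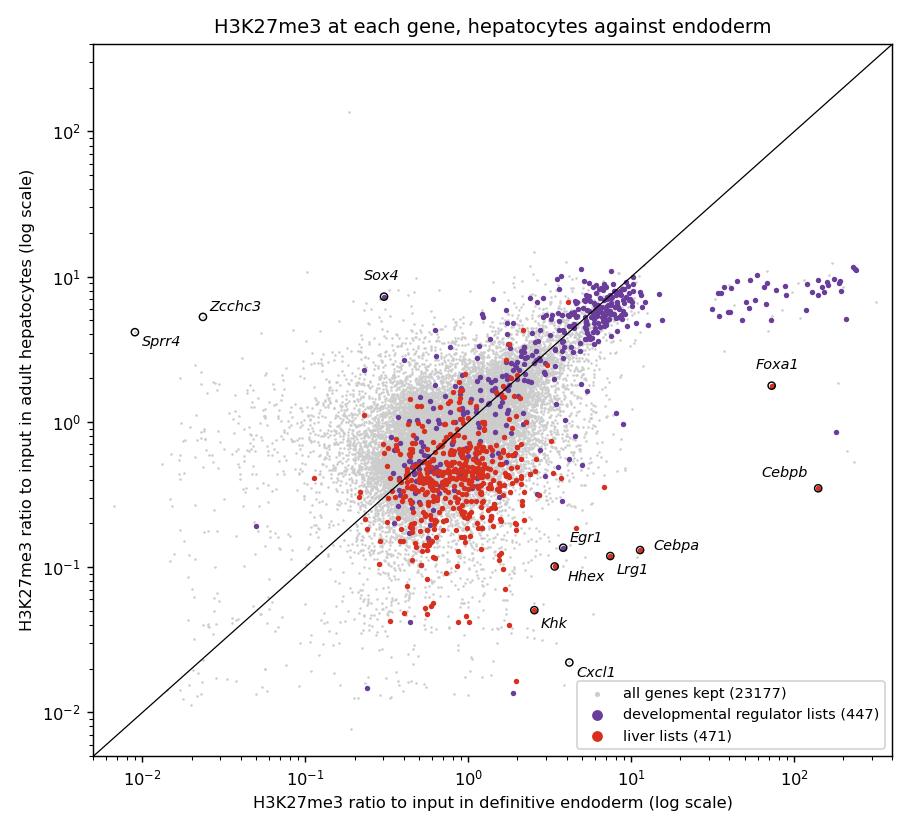
Each point is a gene, placed by its H3K27me3 ratio to input in definitive endoderm (horizontal, log scale) and in adult hepatocytes (vertical, log scale), with the diagonal marking equal ratios; grey points are the 23177 genes compared, purple the 447 genes of the developmental regulator lists and red the 471 genes of the liver lists. Liver genes lie mostly below the diagonal, with medians of 0.859 and 0.410, most developmental regulators stay at high ratios in both, and the group of points at the far right is the endoderm tail above 31.4.

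Genes of the liver program carried less of the mark in hepatocytes. The 14 liver lists together held 471 genes, of which 205 were lower (43.5%) and 8 were higher (1.70%), against 10.7% and 10.1% of all genes compared. Their median log2 difference was -0.93, and that of all genes -0.03. Their median ratio was 0.859 in endoderm and 0.410 in hepatocytes, with 0.999 in beta cells. Most of the genes that moved lower did not start from strong marking: 124 of the 205 were below the 75th percentile in endoderm and 9 were at or above the 95th. Their median percentile was 71.0 in endoderm and 9.48 in hepatocytes. In beta cells, an adult cell type of the same germ layer, the same 205 genes had a median percentile of 68.3, and 91 of them had a beta cell ratio at or above the endoderm ratio.

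The promoter sequences of genes with the largest rank changes show that genes with CpG-rich and with CpG-poor starts were among them. Shown are the 250 bases before the RefSeq start, 5′ to 3′ on the strand of the gene, in build GRCm38.p6, with capitals marking CpG dinucleotides. The genes are the liver transcription factors Cebpa (chr7:35119043-35119292, plus strand) and Hhex (chr19:37434591-37434840, plus strand), and the secreted glycoprotein gene Lrg1 (chr17:56121947-56122196, minus strand). They are followed by Khk (chr5:30921309-30921558, plus strand), which encodes the enzyme that starts fructose breakdown, and by Sox4 (chr13:28953700-28953949, minus strand), the developmental regulator that moved furthest in the other direction.
Cebpa: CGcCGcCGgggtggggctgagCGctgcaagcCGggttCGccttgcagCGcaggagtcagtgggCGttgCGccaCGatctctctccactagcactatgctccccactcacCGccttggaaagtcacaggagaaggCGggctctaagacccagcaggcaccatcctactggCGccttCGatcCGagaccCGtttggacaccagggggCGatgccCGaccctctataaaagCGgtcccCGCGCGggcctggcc
Hhex: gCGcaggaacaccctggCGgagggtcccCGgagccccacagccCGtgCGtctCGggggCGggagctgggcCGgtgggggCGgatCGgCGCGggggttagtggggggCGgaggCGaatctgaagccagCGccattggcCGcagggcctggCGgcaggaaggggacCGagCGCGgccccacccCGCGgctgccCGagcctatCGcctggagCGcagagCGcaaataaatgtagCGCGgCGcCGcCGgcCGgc
Lrg1: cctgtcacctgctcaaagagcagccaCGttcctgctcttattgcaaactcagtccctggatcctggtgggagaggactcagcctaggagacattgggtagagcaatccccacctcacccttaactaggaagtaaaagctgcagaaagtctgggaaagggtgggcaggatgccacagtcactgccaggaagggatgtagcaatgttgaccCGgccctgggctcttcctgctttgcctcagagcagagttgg
Khk: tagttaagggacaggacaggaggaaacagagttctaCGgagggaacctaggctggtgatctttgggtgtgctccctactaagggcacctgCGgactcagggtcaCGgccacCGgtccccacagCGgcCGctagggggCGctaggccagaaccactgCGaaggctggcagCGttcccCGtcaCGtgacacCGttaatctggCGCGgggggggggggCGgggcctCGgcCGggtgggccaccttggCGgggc
Sox4: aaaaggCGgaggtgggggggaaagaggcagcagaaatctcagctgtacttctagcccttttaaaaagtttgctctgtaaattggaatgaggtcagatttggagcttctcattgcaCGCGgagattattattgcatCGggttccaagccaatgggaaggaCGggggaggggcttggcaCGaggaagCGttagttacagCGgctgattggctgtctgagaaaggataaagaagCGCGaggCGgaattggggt
The stretches hold 22 CpG for Cebpa, 32 for Hhex, 2 for Lrg1, 18 for Khk and 11 for Sox4. The letters TATAAA occur in the Cebpa stretch on either strand and in none of the other 4.

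Transcription factors of liver moved lower at 22 of 32 genes and higher at 0. Cebpa, a regulator of liver metabolism, stood at the 99.5th percentile in endoderm and at the 3.82nd in hepatocytes, a log2 difference of -5.81. Its ratio was 11.3 in endoderm and 0.131 in hepatocytes, with 3.76 in beta cells. Hhex, a homeobox factor needed for the liver bud, had 3.38, 0.101 and 4.37, a difference of -4.33 between the first and second. Both genes thus had ratios among the highest in endoderm and among the lowest in hepatocytes, while beta cells kept high ratios at both.

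Other factors of the list started lower. Prox1, which directs hepatocyte fate and migration, had 1.21 in endoderm and 0.187 in hepatocytes. The fatty acid sensing receptor gene Ppara had 1.38 and 0.224, and Nr5a2, a receptor that drives bile acid genes, 1.44 and 0.271. Nr0b2, which represses bile acid synthesis, had 0.943 and 0.161, Nr1h4, the bile acid receptor, 0.694 and 0.207, and Klf15, a regulator of amino acid breakdown, 0.514 and 0.103. All 6 were in the lowest 10% of the hepatocyte column. Mlxipl, a glucose-responsive factor, had 1.69 and 0.421, and Xbp1, a factor for secretory capacity, 0.549 and 0.142.

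Of the 32 factors, 10 did not meet the rule, and 8 of these are described. Foxa1, a pioneer factor, came from the endoderm tail with 72.6 and had 1.78 in hepatocytes, still above the 75th percentile of that column. Hnf4a, a central activator of hepatocyte genes, had 0.751 and 0.465, and Nr1i3, a drug receptor, 0.643 and 0.289. Rxra had 0.539 and 0.321, Srebf1 0.447 and 0.275, Thrb 0.640 and 0.456 and Esrrg 0.801 and 0.736. Atf5 was the only one of the 8 with a positive log2 difference, at 0.212 and 0.303. Apart from Foxa1 and Esrrg, each of these had less than the median ratio of its column in hepatocytes. The related pair Foxa2 (1.98 and 0.676) and Foxa3 (1.15 and 0.537) did move lower, Foxa3 close to the limit with a log2 difference of -1.0. With columns divided by their most frequent ratio, 19 of the 32 factors stayed lower, and Foxa3 and Tbx3 (2.26 and 0.998) were among those that lost the call.

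**Figure D2:**
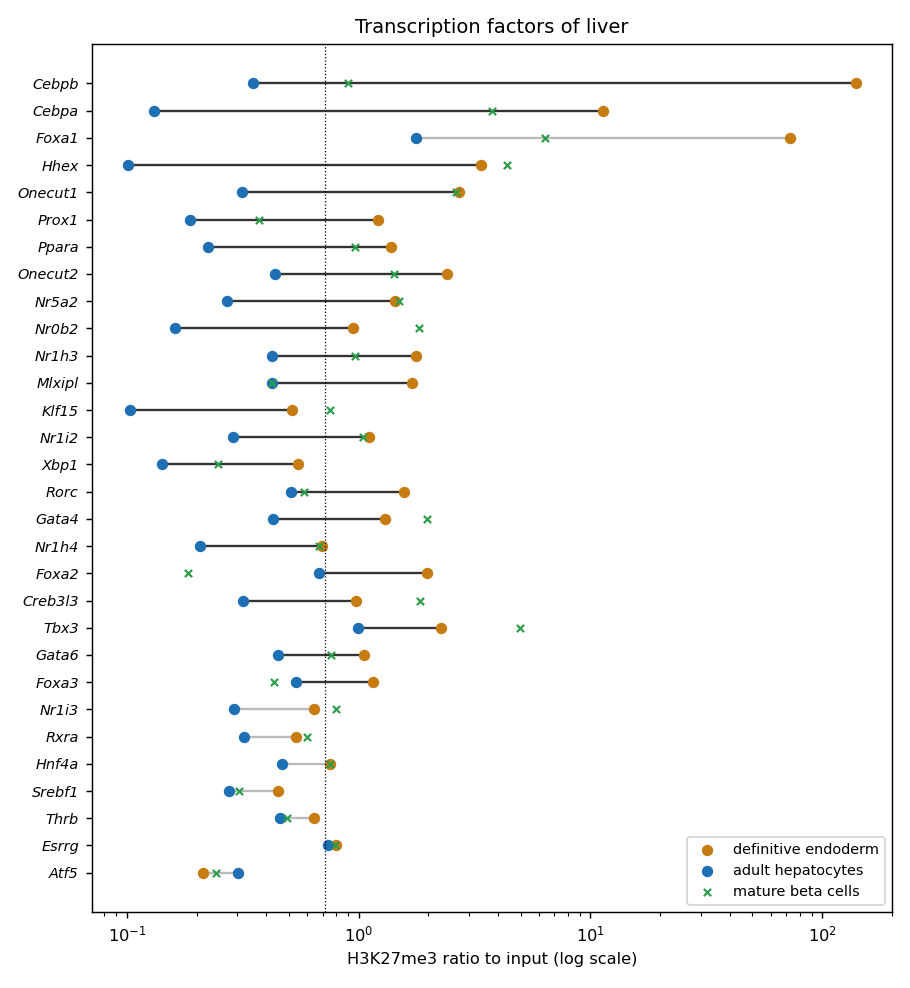
H3K27me3 ratio to input (log scale) of 30 of the 32 liver transcription factors in definitive endoderm (orange), adult hepatocytes (blue) and mature beta cells (green crosses), 1 pooled value each, ordered by the log2 difference; dark connecting lines mark the 22 genes that moved lower, light lines 8 others, and the dotted line the median of the genes compared (0.718 in endoderm). Hepatocyte values lie left of endoderm values at every factor plotted except Atf5.

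Secreted liver products followed. Plasma carriers and acute-phase proteins were lower at 23 of 41 genes and higher at 0, with medians of 0.805 in endoderm and 0.280 in hepatocytes. Lrg1, a leucine-rich acute-phase glycoprotein, had 7.42 and 0.119, a log2 difference of -5.30, and 5.71 in beta cells. The serum amyloid genes Saa4 (1.77 and 0.0401) and Saa1 (1.95 and 0.180) and the protease inhibitor gene Serpina3k (0.966 and 0.0458) were also lower. Alb, the gene for albumin, did not move, with 0.374 in endoderm and 0.400 in hepatocytes, both in the lowest 25% of the column.

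Liver hormones and growth factor binding proteins were lower at 17 of 25 genes and higher at 0. Angptl8, a regulator of lipoprotein lipase, had 1.97 in endoderm and 0.0163 in hepatocytes, and Enho, which encodes the peptide adropin, had 4.6 and 0.185. Fgf21, a fasting hormone, had 2.14 and 0.267, and Igfbp1, a binding protein of insulin-like growth factors, 1.2 and 0.134. In beta cells the ratios were 0.770 for Angptl8, 0.213 for Enho, 1.38 for Fgf21 and 3.30 for Igfbp1, so Enho was low in both adult cell types.

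Coagulation and fibrinolysis genes were lower at 13 of 25, complement genes at 9 of 25 and lipoprotein and sterol genes at 17 of 27, with 0 higher in each. F12, which encodes the contact factor that starts intrinsic clotting, had 3.29 and 0.444. Fgb, the beta chain of fibrinogen, had 1.57 and 0.360, and Plg, plasminogen, 0.920 and 0.231. Masp2, a protease of the lectin pathway of complement, had 2.09 and 0.376, and the central component C3 had 1.07 and 0.363. C3 lost its call when columns were divided by their most frequent ratio. Among lipoprotein genes, Apoa4 had 1.38 and 0.219, Apoa1, the main protein of high-density lipoprotein, 1.47 and 0.254, Apoc3 0.622 and 0.115, and Lcat, the enzyme that esterifies plasma cholesterol, 0.726 and 0.0915.

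Metabolic enzymes of liver were lower as well. Urea cycle and amino acid enzymes were lower at 20 of 38 genes. Nags, which makes the activator of the first urea cycle enzyme, had 6.75 in endoderm and 0.358 in hepatocytes, while the cycle enzyme gene Cps1 had 0.703 and 0.181. Gnmt, which consumes methyl groups, had 1.63 and 0.0975, and Haao, an enzyme of tryptophan breakdown, 2.14 and 0.283. Gluconeogenesis, glycogen and fructose genes were lower at 9 of 19. Khk had 2.54 and 0.0505, a log2 difference of -4.42, Ppp1r3b, a glycogen targeting subunit, 1.43 and 0.191, and Fbp1, an enzyme of gluconeogenesis, 1.12 and 0.200.

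Fatty acid oxidation and ketogenesis genes were lower at 13 of 25. Acot3 had 3.72 and 0.412, Cpt1a, the gate of mitochondrial fatty acid uptake, 1.59 and 0.208, and Fabp1, the liver fatty acid binding protein, 0.575 and 0.142. Bile acid genes were lower at 9 of 22. Slc27a5, which couples bile acids to coenzyme A, had 1.59 and 0.124, and Cyp7a1, the rate-limiting enzyme of bile acid synthesis, 0.894 and 0.162. In these 2 lists 0 genes were higher.

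The drug-handling lists were more mixed. Cytochrome P450 families 1 to 3 were lower at 18 of 58 genes and higher at 2, conjugation enzymes at 25 and 1 of 76, and organic ion transporters at 9 and 2 of 40. Cyp2d22 (1.54 and 0.113), Cyp2d26 (1.55 and 0.122) and Cyp2a12 (1.95 and 0.197) were the P450 genes with the largest differences on the lower side. The members that were higher were Cyp3a16 (0.955 and 2.14) and Cyp2b23 (0.425 and 0.972), Sult2a1 (0.874 and 1.87), and the transporters Slc22a16 (0.487 and 1.28) and Slco3a1 (0.514 and 1.29). Division by the most frequent ratio turned the transporter list to 2 lower and 4 higher. Major urinary protein genes, a cluster of near-identical copies among which short reads are hard to place, were lower at 3 of 21 and higher at 3: Mup3 had 0.859 and 0.0420 but Mup4 0.230 and 1.11.

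Some of these genes lay side by side. In the gene order of RefSeq, 26 runs of 4 or more neighbouring genes were all lower in hepatocytes, with 118 genes in all. The longest, with 8 genes, was a Y-linked group of near-identical copies around Rbmy, among which reads cannot be placed with certainty. The next, with 6, held Ugt1a7c, Ugt1a6b, Ugt1a6a, Ugt1a5 and Ugt1a2, glucuronidation genes that share exons, and Dnajb3. Other runs held Ugt2b34, Ugt2b1, Ugt2b35, Ugt2b36 and Ugt2b5, the carboxylesterase genes Ces1d to Ces1g, the plasma protein genes Hrg, Kng2 and Kng1, and Plin4, Plin5 and Lrg1. Among 283 gene families of 10 or more members, the families with the highest share on the lower side were Fzd (5 of 10), Ugt (10 of 21), Irf (5 of 12), Parp (5 of 12) and Klhdc (4 of 10, a share that Lgals also had).

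**Figure D3:**
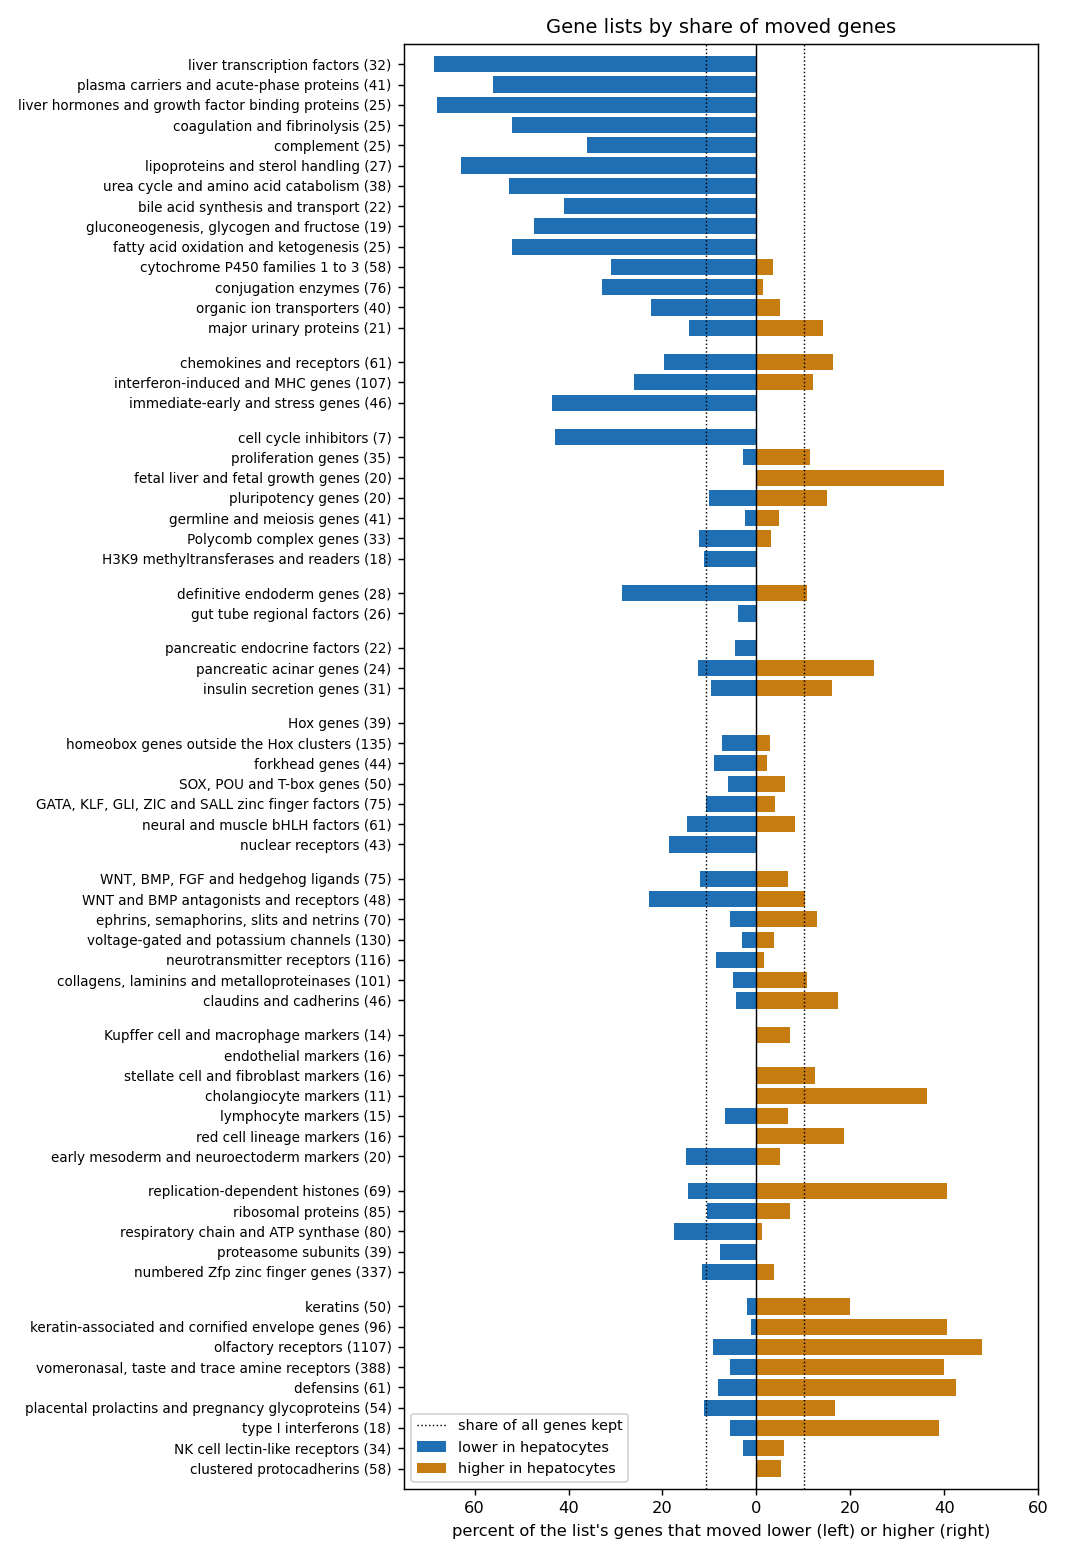
Percent of each list's genes that moved lower (blue, to the left) or higher (orange, to the right) in hepatocytes than in endoderm, with the number of genes of the list in brackets; dotted lines mark the shares of all genes compared, 10.7% and 10.1%. The longest bar to the left is that of liver transcription factors with 68.8% and the longest to the right that of olfactory receptors with 48.1%. Immediate-early genes (43.5%) and cell cycle inhibitors (42.9%) reach further left than several liver lists, and fetal genes (40.0%) reach about as far right as vomeronasal and taste receptors (39.9%).

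Immediate-early and stress genes, which respond within minutes to growth factors, cytokines or metals, were lower at 20 of 46 and higher at 0. Their median ratio was 1.86 in endoderm and 0.363 in hepatocytes, with 0.790 in beta cells, and 17 of them were in the lowest 5% of the hepatocyte column. The metallothionein genes Mt1 (10.9 and 0.117) and Mt2 (2.30 and 0.0379) and the growth arrest gene Gadd45g (3.82 and 0.102) had some of the largest differences. Cebpd, an acute-phase factor, had 3.97 and 0.112, Egr1, a zinc finger factor of the growth response, 3.81 and 0.136, and Zfp36, which destabilises cytokine messages, 1.91 and 0.0916. The same genes were low in beta cells, with 0.141 for Mt1, 0.126 for Mt2, 0.319 for Gadd45g, 0.467 for Cebpd, 0.293 for Egr1 and 0.0903 for Zfp36. The suppressors of cytokine signalling Socs1 (5.74 and 0.905), Socs3 (1.82 and 0.197) and Socs2 (1.03 and 0.305) were lower too. Others kept the mark in both, among them Egr3 (8.74 and 8.21), Nr4a3 (3.83 and 3.63) and Egr2 (6.24 and 3.59).

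Interferon-induced and MHC genes were lower at 28 of 107 and higher at 13. In endoderm 22 of them were at or above the 95th percentile and in hepatocytes 3, and 11 passed from that class to below the 50th percentile. The genes that were lower included the machinery that loads peptides on MHC class I: the transporter genes Tap1 (5.69 and 0.271) and Tap2 (4.05 and 0.433), the immunoproteasome genes Psmb8 (6.21 and 0.489) and Psmb9 (4.07 and 0.520), and B2m, the light chain of class I (1.67 and 0.133). Psmb9, Tap1, Psmb8 and Tap2 are direct neighbours and formed 1 of the 26 runs, and the proteasome activator genes Psme1 and Psme2 lay in another. Of 43 genes with H2- symbols, 13 were lower and 4 higher, and 17 were at or above the 95th percentile in endoderm against 3 in hepatocytes. Some are close copies among which reads may be shared, such as H2-T9 and H2-T22 with 2.09 and 0.407 each. Their counts are thus not of independent genes. The interferon regulatory factor genes were lower at 5 of 12, with Irf5 at 3.76 and 0.391. On the higher side stood the oligoadenylate synthetase genes, 5 of 12 higher and 0 lower, with Oas1h at 0.582 and 2.09 and Oas1g at 0.434 and 1.46, 5 neighbours from a cluster of close copies. Division by the most frequent ratio left 22 of the 107 lower and 17 higher.

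Chemokines and their receptors went both ways, 12 of 61 lower and 10 higher, and 8 and 14 after that division. The Cxcl genes accounted for 5 of the lower ones and 0 of the higher ones among 13, with Cxcl1, a chemokine for neutrophils, at 4.16 and 0.0221 and Cxcl10, an interferon-induced chemokine for T cells, at 2.81 and 0.256. The Ccl genes were lower at 3 and higher at 6 of 24, with Ccl12 at 0.0407 and 2.75 and Ccl20 at 0.167 and 2.63. Ccl12, Ccl20 and the decoy receptor gene Ackr1 (0.0572 and 2.18) all started in the lowest 5% of the endoderm column. Beta cells had 5.55 at Ccl12 and 5.49 at Ackr1.

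Developmental regulators mostly kept their place. Of 447 genes, 230 were at or above the 95th percentile in endoderm, 233 in hepatocytes and 207 in both. The lists together had 42 lower genes, 9.40%, and 16 higher genes, 3.58%, both under the shares of all genes compared. The higher share was limited by the rule, since 323 of the 447 lay too high in endoderm for a higher call. The 39 Hox genes, the patterning genes of the body axis, did not move in either direction, and since 37 of them were at or above the 95th percentile in endoderm they could not have been called higher. Gut tube regional factors were lower at 1 of 26 genes, with 0 higher, and 21 of the 26 likewise lay too high in endoderm for a higher call.

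**Figure D4:**
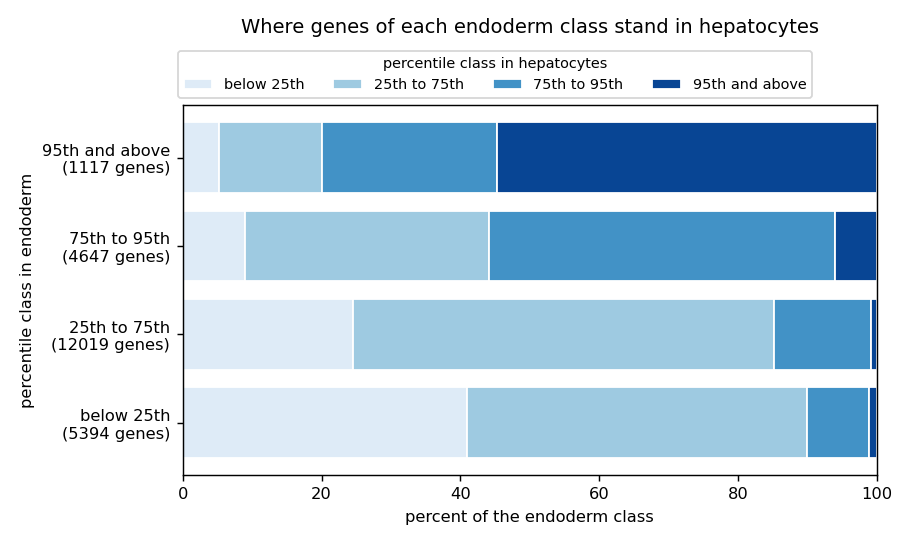
Genes are grouped by percentile class of their H3K27me3 ratio in endoderm (rows, number of genes in brackets), and each bar is divided by the percent of them found in each percentile class of hepatocytes (shades). Of the 1117 genes in the top endoderm class (95th percentile and above), 54.7% were also there in hepatocytes and 5.19% were below the 25th, and of 5394 genes below the 25th, 1.09% reached the top class.

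Few regulators crossed from one end to the other. Among 477 genes of the developmental, endoderm and liver factor lists, 8 passed from at or above the 95th percentile in endoderm to below the 50th in hepatocytes: Cebpa, Cebpb, Hhex, Egr1, Nr2f2, Scx, Foxq1 and Nkx2-6. Nr2f2, a nuclear receptor of mesenchyme and veins, had 3.76 in endoderm and 0.283 in hepatocytes, with 4.78 in beta cells. Foxq1, a forkhead gene, had 4.95, 0.508 and 5.26, and Nkx2-6, a homeobox gene of pharyngeal endoderm and heart, 4.16, 0.553 and 5.43. Scx, a tendon factor, had 3.53, 0.486 and 1.96. At 5 of the 8 genes (Cebpa, Hhex, Nr2f2, Foxq1 and Nkx2-6), the beta cell ratio was also at or above the 95th percentile.

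The reverse passage was made by Sox4 and Msgn1. Sox4, a factor of progenitor cells, had 0.303 in endoderm and 7.28 in hepatocytes, with 0.295 in beta cells, a log2 difference of 4.30. Msgn1, a factor of presomitic mesoderm, had 0.626, 4.31 and 0.215. At both, hepatocytes were the only one of the 3 cell types with a high ratio. Short of this limit, Meis3 (0.405 and 2.67), Sall2 (0.776 and 3.30), Sall4 (0.626 and 1.79), a factor of fetal liver progenitors, and the muscle factor gene Myf5 (0.228 and 2.26) were higher too.

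Nuclear receptors were lower at 8 of 43 genes and higher at 0, and 7 and 0 after division by the most frequent ratio. Homeobox genes outside the Hox clusters were lower at 10 of 135 and higher at 4, but 6 and 6 after that division, and GATA, KLF, GLI, ZIC and SALL factors at 8 and 3 of 75, but 6 and 6. Neural and muscle basic helix-loop-helix factors were lower at 9 and higher at 5 of 61. Hes6, an antagonist of the Notch effector Hes1, had 1.87 and 0.0136, and Klf2, a flow-responsive factor of endothelium, 8.83 and 0.961.

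Genes of the endoderm itself were called lower at a larger share than all genes. Of 28, 8 were lower in hepatocytes (28.6%, against 10.7% of all genes) and 3 higher (10.7%, against 10.1%). The higher share was limited by the rule, since 19 of the 28 lay too high in endoderm for a higher call. The signalling genes Lefty1 (5.42 and 0.924) and Nodal (1.60 and 0.439), which act in endoderm induction and left-right patterning, were lower, as was Gata4 (1.3 and 0.426). The higher genes were Cldn6, a claudin of embryonic epithelia (0.929 and 5.32), Epcam, an adhesion gene of progenitors and ducts (0.547 and 2.69), and Emb (0.622 and 1.38). Of the 6 endoderm markers set to check the labels, 1 was lower, Foxa2 (1.98 and 0.676), and 2 were higher, Cldn6 and Epcam. Krt8 (0.579 and 0.460) did not move, and Sox17 (1.42 and 7.05) and Cxcr4 (1.74 and 5.54) were above their endoderm ratio but lay too high in endoderm to meet the rank limit. Of the 10 hepatocyte markers, 6 were lower and 0 higher, with a range of 0.374 to 11.3 in endoderm and 0.118 to 0.465 in hepatocytes. These values concern the mark at the markers, since no expression was measured.

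Epithelial genes of the bile ducts stood out among the genes of other liver cells. Of 11 cholangiocyte markers, 4 were higher and 0 lower, with medians of 0.701 in endoderm and 2.30 in hepatocytes, with 0.472 in beta cells. They were Krt7 (0.449 and 2.30), Cldn7 (1.04 and 4.90), Epcam and Spp1 (0.511 and 2.02), while Krt19 (2.00 and 4.02) and Sox9 (1.15 and 3.34) did not meet the rule. Beta cells had 0.501 at Krt7, 0.238 at Cldn7, 0.472 at Epcam and 0.288 at Spp1. Of the Kupffer cell markers 0 were lower and 1 higher of 14, and of endothelial markers 0 and 0 of 16. Stellate cells and fibroblasts had 0 and 2 of 16, lymphocytes 1 and 1 of 15 and red cells 0 and 3 of 16. Against 10.1% of all genes, the share called higher was 18.8% for red cells and 12.5% for stellate cells and fibroblasts. It was 7.14% for Kupffer cells, 6.67% for lymphocytes and 0% for endothelium. In endoderm, 10 red cell, 9 stellate, 9 lymphocyte, 6 Kupffer cell and 3 endothelial markers lay too high for a higher call. The medians of these lists in hepatocytes were within 1.03 and 2.05, above the 0.702 of all genes compared. The marks of these lineages were thus not low. The share of such cells among the hepatocytes was not tested.

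Of 46 claudins and cadherins, 8 were higher and 2 lower. The 8 included the claudin genes Cldn4, Cldn6, Cldn7, Cldn8 (0.246 and 1.46) and Cldn9 (0.911 and 4.07) and the cadherin genes Cdh3, Cdh6 and Cdh24. The 2 lower members were claudins, Cldn3 (5.35 and 0.434) and Cldn1 (1.3 and 0.379), which form tight junctions in hepatocytes. Abhd11, in the same run of neighbours as Cldn3, was lower too (0.540 and 0.227). Of 101 genes for collagens, laminins and metalloproteinases, 11 were higher and 5 lower, close to the share of all genes on the higher side, with the laminin gene Lamb1 at 0.407 and 3.47.

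Signalling genes moved in both directions. The signalling, guidance, channel, receptor, matrix and adhesion lists together held 586 genes. Of these, 7.68% were lower and 7.68% higher, against 10.7% and 10.1% of all genes. The higher share was limited by the rule, since 282 of the 586 were at or above the 75th percentile in endoderm. WNT, BMP, FGF and hedgehog ligands were lower at 9 of 75 and higher at 5, and 7 and 7 after division by the most frequent ratio. The lower ones included Inhbe (1.69 and 0.0710), an activin subunit made mainly by liver, the stress hormone Gdf15 (1.2 and 0.0968) and Ihh, a hedgehog ligand (5.06 and 0.926), and the higher ones Gdf11 (0.438 and 2.07) and Fgf5 (0.546 and 2.33). WNT and BMP antagonists and receptors were lower at 11 of 48 (22.9%) and higher at 5. The frizzled WNT receptors alone had 5 of 10 lower, among them Fzd1 (3.65 and 0.439), Fzd5 (1.69 and 0.274) and Fzd7 (1.21 and 0.0808), and 1 higher, Fzd2 (0.307 and 5.98). Notum, a secreted WNT inactivator, had 4.66 and 0.546, and Dkk1, a secreted WNT antagonist, went the other way with 0.296 and 4.37. Beta cells shared the high ratios at Fzd2 (5.56) and Dkk1 (2.94).

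Genes of the fetal state leaned higher, and those of proliferation were called higher at about the share of all genes. Of 20 fetal liver and fetal growth genes, 8 were higher and 0 lower, with medians of 0.562 and 1.44. They included the RNA regulators Lin28a (0.472 and 2.46) and Trim71 (0.413 and 2.05), the imprinted genes Meg3 (0.358 and 1.08) and Mest (0.530 and 1.52), the proto-oncogene Mycn (0.659 and 1.64) and the chromatin protein gene Hmga2 (0.50 and 1.25). Igf2, the fetal growth factor, was high in both (3.64 and 6.81), and Afp, the fetal plasma protein, had 0.614 and 0.411. Of 35 proliferation genes, 4 were higher (11.4%, against 10.1% of all genes) and 1 lower. The 4 started from low ratios: Cdc20 had 0.181 and 1.06, Aurkb 0.196 and 0.778, Cenpa 0.200 and 0.684 and Plk1 0.263 and 0.820. The exception was Ccnd1, cyclin D1, with 1.1 and 0.371. The 35 genes had median ratios of 0.433 and 0.637, and a median log2 difference of 0.46 against -0.03 for all genes. Division by the most frequent ratio gave 11 higher and 0 lower, where 14.2% of all genes were higher. Their median percentile in endoderm was 21.5, so most of the 35 could not be called lower.

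Cell cycle inhibitors were lower at 3 of 7. Cdkn2c had 3.09 and 0.274, Cdkn2d 0.883 and 0.258 and Cdkn1a, the p53 target, 1.60 and 0.570, the last of which lost its call after division by the most frequent ratio. Cdkn1b (0.410 and 0.160) and Cdkn1c (6.33 and 2.32) met the log2 limit but not the rank limit. Cdkn2a (6.20 and 5.75) and Cdkn2b (3.00 and 4.48) were high in both. Genes of the Polycomb system itself were lower at 4 of 33 (12.1%), close to the 10.7% of all genes. They were higher at 1 (3.03%, against 10.1% of all genes). The lower ones included the chromobox gene Cbx8 (4.02 and 0.506), the PRC2 accessory gene Phf19 (1.83 and 0.777) and Rbbp4 (0.734 and 0.305). The catalytic and core PRC2 genes Ezh2 (0.514 and 0.516), Eed (0.429 and 0.422) and Suz12 (0.535 and 0.330) did not move.

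Lists made mainly of genes of tissues far from liver made up much of the higher side. These 9 lists, called the lists of distant tissues, held 1866 genes. Of these, 784 were higher (42.0%) and 139 lower (7.45%). The name is loose, since the lists also hold keratins, type I interferons, clustered protocadherins and NK cell lectin-like receptors. Not all of these are particular to a distant tissue. Of all 2334 genes that were higher, 28.8% were olfactory or vomeronasal receptors. Of 1107 olfactory receptor genes, 533 were higher and 102 lower, but those below the 25th percentile in endoderm could not be called lower. The 1107 genes had a median percentile of 26.7 there. Their median ratio was 0.471 in endoderm and 1.1 in hepatocytes, with 1.23 in beta cells. Their log2 ratios were spread widely in endoderm, where 208 were in the lowest 5% of the column and 56 in the highest 5%: the interquartile range was 2.30 there and 0.89 in hepatocytes, against 1.28 and 1.33 for all genes. In beta cells it was 2.08. Olfr523 had 0.0535 in endoderm and 4.12 in hepatocytes, while Olfr1090 had 2.54 and 0.0498. This spread differed between the columns compared, and its part in the count was not tested.

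Epidermal and keratin genes were on the higher side as well. Of 96 keratin-associated and cornified envelope genes, 39 were higher and 1 lower, with medians of 0.940 and 1.88. Sprr4, a cornified envelope gene, had 0.00898 in endoderm and 4.15 in hepatocytes, with 0.0781 in beta cells, Krtap9-3, a hair protein gene, 0.285, 7.02 and 4.63, and Lce1b 0.219, 3.28 and 1.16. Lor, the gene for loricrin, was the exception with 3.64, 1.11 and 0.393. Of 50 keratins, 10 were higher and 1 lower, with Krt20 at 0.621 and 3.26 and Krt80 at 0.778 and 2.84.

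Defensins were higher at 26 of 61 and lower at 5, vomeronasal, taste and trace amine receptors at 155 and 22 of 388, and type I interferons at 7 and 1 of 18. Many of these are clusters of close copies among which reads may be shared, and 181 of the genes compared shared all 3 of their values with another gene, 46 of them higher and 10 lower. Placental prolactins and pregnancy glycoproteins (9 higher, 6 lower of 54) and NK cell lectin-like receptors (2 and 1 of 34) lay nearer the background. Clustered protocadherins were higher at 3 of 58 and lower at 0, but 54 of the 58 lay too high in endoderm for a higher call. Of 51 runs of 4 or more neighbours that were all higher, with 261 genes, 40 held a receptor gene, and the longest had 10 vomeronasal receptors. Runs without a receptor included Krtap21-1 to Krtap11-1 with 5 genes, Oas1f to Oas1d with 5, and the bone matrix genes Sparcl1, Dspp, Dmp1 and Ibsp.

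Of 69 replication-dependent histone genes, which lack introns and lie in clusters of near-copies, 28 were higher and 10 lower. The 69 had a median percentile of 14.1 in endoderm, so most of them could not be called lower. A run of 9 neighbours from Hist1h4j to Hist1h2bq was higher, with Hist1h1b at 0.0277 and 1.85, but Hist1h4d had 3.86 and 0.0155. Respiratory chain genes were lower at 14 of 80 and higher at 1, with Ndufa6 at 1.05 and 0.0813 and Uqcr10 at 0.854 and 0.104. Ribosomal protein genes were lower at 9 of 85 and higher at 6, and 7 and 12 after division by the most frequent ratio, and numbered Zfp genes were lower at 39 and higher at 13 of 337, and 20 and 28 after it.

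Further lists are given by their counts. Against 10.7% lower and 10.1% higher of all genes, voltage-gated and potassium channels had 3.08% and 3.85%, and neurotransmitter receptors had 8.62% and 1.72%. Of the channels 75, and of the neurotransmitter receptors 67, were at or above the 75th percentile in endoderm and could not be called higher. Lower and higher counts were 4 and 1 of 44 forkhead genes, 3 and 3 of 50 SOX, POU and T-box genes, 3 and 1 of 20 early mesoderm and neuroectoderm markers, and 4 and 9 of 70 ephrins, semaphorins, slits and netrins. They were 4 and 5 of 130 channels, 10 and 2 of 116 neurotransmitter receptors, 3 and 5 of 31 insulin secretion genes and 3 and 6 of 24 pancreatic acinar genes. They were 2 and 3 of 20 pluripotency genes, 1 and 2 of 41 germline and meiosis genes, 2 and 0 of 18 H3K9 methyltransferases and readers, and 3 and 0 of 39 proteasome subunits. The 22 pancreatic endocrine factors had a median ratio of 5.49 in endoderm and 5.48 in hepatocytes.

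Outside the lists, a few named genes had very large differences. Zcchc3, which encodes a co-sensor of cytosolic nucleic acid, had 0.0235 in endoderm and 5.28 in hepatocytes, with 0.280 in beta cells. Fjx1 had 0.462, 7.86 and 7.39, and Arl4c, a small GTPase gene, 0.240, 4.82 and 1.40. On the lower side, Tusc1 had 2.84, 0.0315 and 0.0195.

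Promoter CpG content set the genes that were higher apart from the rest, while the genes that were lower resembled those that did not move. RefSeq promoter windows of 300 bases, 250 before and 50 after the start, were matched to 18091 of the 23177 genes. Genes that were lower had a median of 14 CpG, and 28.3% of them held 5 or fewer, close to the 15 CpG and 28.3% of genes that did not move. Genes that were higher had a median of 3 CpG, and 67.6% of them held 5 or fewer. Without the lists of distant tissues the genes that were higher still had a median of 5 CpG. Put the other way, 21.0% of the genes with 5 or fewer CpG were higher and 9.23% lower, whereas 3.40% of those with 15 or more were higher and 11% lower. Leaving the lists of distant tissues out, 13.3% of the CpG-poor genes were higher and 9.83% lower.

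Of the liver genes that were lower and had a window, 57.4% of 155 held 5 or fewer CpG, with a median of 4, against the median of 14 for all lower genes. Liver list genes that were not lower also had a median of 4, and 71.4% of 213 held 5 or fewer. Within the liver lists, the share that was lower was 36.9% of 241 genes with 5 or fewer CpG, 53.6% of 69 with 6 to 14 and 50.0% of 58 with 15 or more. The liver transcription factors were CpG-rich, with a median of 17 over 25 genes, as were the developmental regulators with 18. The letters TATAAA, searched on both strands, occurred in 13.3% of lower, 26.1% of higher and 24.2% of liver list promoters, and in 13% of all. Base composition differs between these classes, so the shares only describe the windows.

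**Figure D5:**
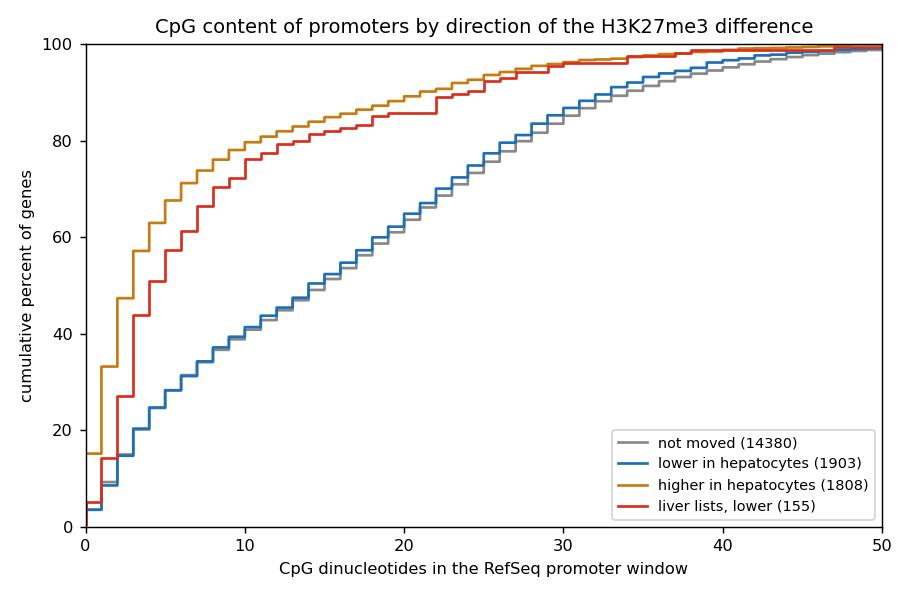
Cumulative percent of genes (vertical) by the number of CpG dinucleotides in the RefSeq promoter window (horizontal) for genes that did not move (grey), were lower in hepatocytes (blue) or higher (orange), and for liver list genes that were lower (red), with the number of genes in brackets. The blue and grey curves lie together with medians of 14 and 15 CpG, and the orange and red curves lie to their left with medians of 3 and 4.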

How the data were processed

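Hepatocyte and endoderm values were taken from the authors' deposited table of 3 cell types, whose unit is a ratio of H3K27me3 signal over input; the table's title and the file headers give quantile normalization as the authors' step. Division by input is not stated and was read from the title and the values, which are above 0 throughout. Bowtie2 2.1.0, bedtools and build mm9 are named in the submitters' processing notes. Not given in the sources used here are the region measured per gene, any constant added and the pooling of libraries. Read depth is unknown. 0 value columns of the table lack a cell type label.

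From these ratios, log2 differences and rank percentiles (over all 24466 genes) were computed with Python 3.11.15, numpy 2.4.6 and pandas 2.3.3, and the rule was tested on simulated data. The comparison, the rule and the 64 gene lists (4450 distinct genes) were chosen with earlier results of these data known. In text, up to 15 genes per direction with the largest log2 differences at or above the 75th percentile in 1 column were named, without gene models, olfactory and vomeronasal receptors. Also named were up to 6 moved members per list and up to 4 against its direction, any member of the liver factor, cell cycle inhibitor and Polycomb lists, regulators that crossed between the 95th and 50th percentiles, genes at the thresholds, and the leading families and neighbour runs. Other genes named, among them list members that did not move, cell type markers and further runs, were picked after their values were seen. Promoter windows came from RefSeq (GRCm38.p6), joined by symbol, with the first listed start where a gene has several (2771 genes). The 12 H3K27me3 libraries are a part of 48, and the H3K9me3 libraries were not analysed here. No test across samples was possible. Some genes that the naming rule covers are not reported here.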

Additional observations from a re-analysis of the deposited data

How the results depend on the processing

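No paired analysis was possible because each cell type has 1 pooled column, and leaving out replicates was not run for the same reason. The main counts were 2485 genes lower, 2334 higher, 205 liver genes lower and 784 genes of distant tissues higher. A pseudocount 10 times larger gave 865, 799, 65 and 348, by construction since it shrinks all differences. Only genes with a mean ratio above the median gave 1490, 1424, 101 and 381, from 11588 genes. A log2 limit of 1.5 gave 1293, 1259 and 128, and 25 rank points alone 3757 lower genes. Division by the most frequent ratio gave 1419 lower genes, and leaving out olfactory and vomeronasal receptors gave 126 genes of distant tissues. Every other combination of these 4 counts with the alternatives tried stayed within 1.5 times. No named gene that had moved changed sign under the 4 settings that alter its difference or rank, but 141 of 369 lost their call with the larger pseudocount. Under the division 35 lost it and 3 gained one; the smaller pseudocount added 6 calls and ranks among the genes compared removed 1. The share of liver genes lower ranged from 13.8% to 58.4% and always exceeded the share of all genes (3.73% to 16.2%). Unknown depth and missing replicates limit every value.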
